A study of Homo sapiens with 12 samples.

Results

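The genes described here are 45 DNA replication genes, a list of symbols that covers origin licensing, the MCM helicase and its activators, the replicative polymerases, the sliding clamp and its loader, the single-strand binding protein RPA, DNA maturation, nucleotide supply and the transcription factor E2F1. All 45 were among the 24559 gene symbols in the count table, and all 45 passed the filter on low counts that left 16538 genes for testing. Polysome-associated mRNA, the mRNA that sediments with several ribosomes in a sucrose gradient, was sequenced from 3 established triple-negative breast cancer (TNBC) cell lines in 12 libraries that form 6 groups of 2. MDA-MB-231 and SUM159 cells carried either the control construct labelled EV or an shRNA against TRMT112 (KD), and BT549 cells carried either the empty vector (EV) or a TRMT112 expression construct (OE). TRMT112 is the activating partner of several rRNA, tRNA and protein methyltransferases, and the comparisons ask which mRNAs on polysomes change when it is lowered or raised. The study's methods name a non-silencing shRNA as the control for KD. KD cells and their controls were selected with puromycin and OE cells and theirs with G418, the labels give no experimental treatment for any group, and whether each modified line is a clone or a pool is not given in the sources used here. All cells received cycloheximide, which holds ribosomes on mRNA, shortly before lysis.

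Before S phase, the origin recognition complex (ORC1 to ORC6) with CDC6 and CDT1 loads the ring-shaped MCM2-7 helicase onto origins. CDC45 and the GINS complex then join MCM2-7 to form the active helicase, polymerase alpha with primase starts each strand, and polymerases delta and epsilon extend it while held by the PCNA clamp that replication factor C (RFC) loads. Many of these genes are transcribed at the transition from G1 to S under E2F factors, and proliferating tumor cells express them at high levels.

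The libraries held 22954226 to 27434677 expected counts each. The 2 libraries of every group differed beyond sampling noise, with a chi-square of 2.14 to 3.05 per gene, where 1 is the value for counting noise alone. The labels do not say whether they came from separate cultures, so the p-values measure the spread between these libraries, which may be technical. TRMT112 stood at 4147 and 3938 normalized counts in MDA-MB-231 EV and at 1764 and 1682 in KD. It stood at 6332 and 6566 in SUM159 EV and at 3909 and 3699 in KD. In BT549 it stood at 3076 and 3087 in EV and at 4286 and 4319 in OE, so each library matched its label. A normalized count is a gene's expected count scaled by the trimmed mean of M values (TMM) to a library of mean size. Every listed transcript has a count above 0 in at least 1 of the 4 BT549 libraries, so a gene that is not listed was not detected in BT549 and has no value in the other lines. Of the receptor genes used to define TNBC, ESR1 was not listed and PGR reached at most 9.97 normalized counts. ERBB2 mRNA was present in every library, between 1385 and 3420. Of the mesenchymal markers, VIM lay between 16821 and 47473 and fell in BT549 OE (17450 and 16821 against 47330 and 47473 in EV). ZEB1 (997.8 and 980.3 against 2129 and 2155) and FN1 (1216 and 1059 against 2192 and 2246) fell there too. SNAI2 rose there, from 694.2 and 695.4 to 6572 and 6440. In SUM159 KD FN1 rose from 5345 and 5452 to 15064 and 15247, while VIM fell from 46019 and 46672 to 38034 and 35891. The epithelial markers CDH1 and EPCAM lay at 72.1 or lower and KRT5 was not listed. The luminal keratins KRT8 and KRT18 lay between 4375 and 9858 in MDA-MB-231 and SUM159 and at 17.7 or lower in BT549. Of the markers of other cell types, the leukocyte gene PTPRC stayed at 13.8 or lower and CD3E and VWF were not listed. The macrophage marker CD68 lay between 4146 and 4746 in MDA-MB-231 and BT549 EV, between 531.0 and 696.7 in SUM159 and at 162.8 and 166.4 in BT549 OE. The endothelial marker PECAM1 was at 24.2 and 25.1 in SUM159 EV, at 88.7 and 102.9 in SUM159 KD and at 15.4 or lower elsewhere. Any part of these differences in the results was not tested.

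The promoters of the members were searched for 3 sequence motifs, which the list did not use. RefSeq promoters (GRCh38.p14, 250 bases before to 50 bases after each start) were matched for 39 of the 45 genes; RPA2, RPA3, POLD3, GINS4, MCM4 and MCM5 were not matched. One of 4 spellings of the E2F motif (TTTCCCGC, TTTGGCGC, TTTCGCGC or TTTGCCGC, either strand) occurred in 19 of the 39 matched genes, which is 48.7%, against 3.31% of all 35116 promoters and 3.99% of 27305 symbols. The CCAAT box (CCAAT, either strand) was in 24 of 39, or 61.5%, against 34.6% of all promoters and 39.7% of symbols. The letters TTTGAA of the cell-cycle homology region were in 1 of 39, that of RRM1, or 2.56%, against 15.2% of all promoters and 18.2% of symbols. The E2F letters were present for 4 of 4 matched MCM genes and for 3 of 5 matched genes of helicase activation (GINS1, GINS2 and GINS3). A match is a description of the letters and not a binding site. Stretches before the start that lie outside annotated exons are printed 5′ to 3′ for members on which the results below turn, with the E2F letters in capitals, namely a subunit that fell in both KD lines (MCM6, chr2:135876552-135876631, minus strand), another of the same ring (MCM3, chr6:52284882-52284952, minus strand), the GINS subunit that rose most in SUM159 KD (GINS2, chr16:85688955-85689021, minus strand, inside the annotated span of the gene), the clamp (PCNA, chr20:5126638-5126717, minus strand) and E2F1 itself (chr20:33686386-33686454, minus strand).
MCM6: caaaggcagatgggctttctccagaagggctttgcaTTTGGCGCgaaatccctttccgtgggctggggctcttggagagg
MCM3: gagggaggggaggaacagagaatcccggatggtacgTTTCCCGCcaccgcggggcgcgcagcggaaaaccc
GINS2: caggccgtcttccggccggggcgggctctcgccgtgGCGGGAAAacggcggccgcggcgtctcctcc
PCNA: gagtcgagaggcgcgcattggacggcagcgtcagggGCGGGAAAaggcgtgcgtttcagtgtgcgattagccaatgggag
E2F1: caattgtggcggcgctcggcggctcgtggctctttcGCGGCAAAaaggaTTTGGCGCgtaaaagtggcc
The first E2F letters begin 152 bases before the start in MCM6, 174 in MCM3, 31 in GINS2, 59 in PCNA and 33 in E2F1. The windows for GINS2 and PCNA carry the same 8 letters, GCGGGAAA, which is TTTCCCGC read on the other strand. In the MCM6 window GCGCGAAA, which is TTTCGCGC read on the other strand, overlaps the capitals. The search did not count overlapping matches, so the end of that match is in lower case. The windows were picked in part by how these genes moved, so they cannot show whether letters and direction go together. MCM6 and MCM3 fell in both KD lines. GINS2 rose in SUM159 KD and was not called in MDA-MB-231 KD. PCNA and E2F1 fell in MDA-MB-231 KD and rose in SUM159 KD.

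In MDA-MB-231 KD, 24 of the 45 genes were lower and 5 higher than in EV at an adjusted p under 0.05 (edgeR's quasi-likelihood test, Benjamini-Hochberg over all 16538 genes), or 64.4% called, where 37.7% of all genes tested were called. Over all genes 16.5% were lower and 21.2% higher. The median log2 fold change of the 45 was -0.20, that of all genes was 0.00, and the members ranged from -0.83 (RFC1) to 0.33 (TK1). In SUM159 KD, 26 were lower and 10 higher, or 80.0%, where 60.1% of all genes were called (31.4% lower and 28.6% higher). The median was -0.31 against 0.00 for all genes, and the range ran from -1.50 (MCM6) to 1.06 (GINS2). In BT549 OE, 22 were higher and 12 lower, or 75.6%, where 70.6% of all genes were called (35.6% higher and 35.0% lower), so the share of members called there lay near the background. The median was 0.13 against 0.02, and the range ran from -0.92 (ORC1) to 1.46 (POLA1). The shares of all genes given here and below include genes with low counts, which are called less often. All 45 members passed a filter at a mean of at least 50 counts. With it 6193 of 12590 genes were called in MDA-MB-231 KD, 9222 in SUM159 KD and 10145 in BT549 OE. Of these, 3322, 4508 and 5135 were higher. The EV and changed libraries did not overlap for 31 genes that were lower and 8 that were higher in MDA-MB-231 (66.0% of all genes did not overlap), for 27 and 12 in SUM159 (76.7%), and for 13 and 25 in BT549 (82.9%). In MDA-MB-231 the counts were 2 higher and 15 lower without EV replicate 1, 3 and 14 from the leading transcript alone, and 2 and 32 when libraries were scaled by size only. In a bulk library, fewer cells that express a gene and less of its RNA per cell cannot be told apart, nor can the amount of an mRNA and its loading on ribosomes, because no total RNA was measured.

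**Figure D1:**
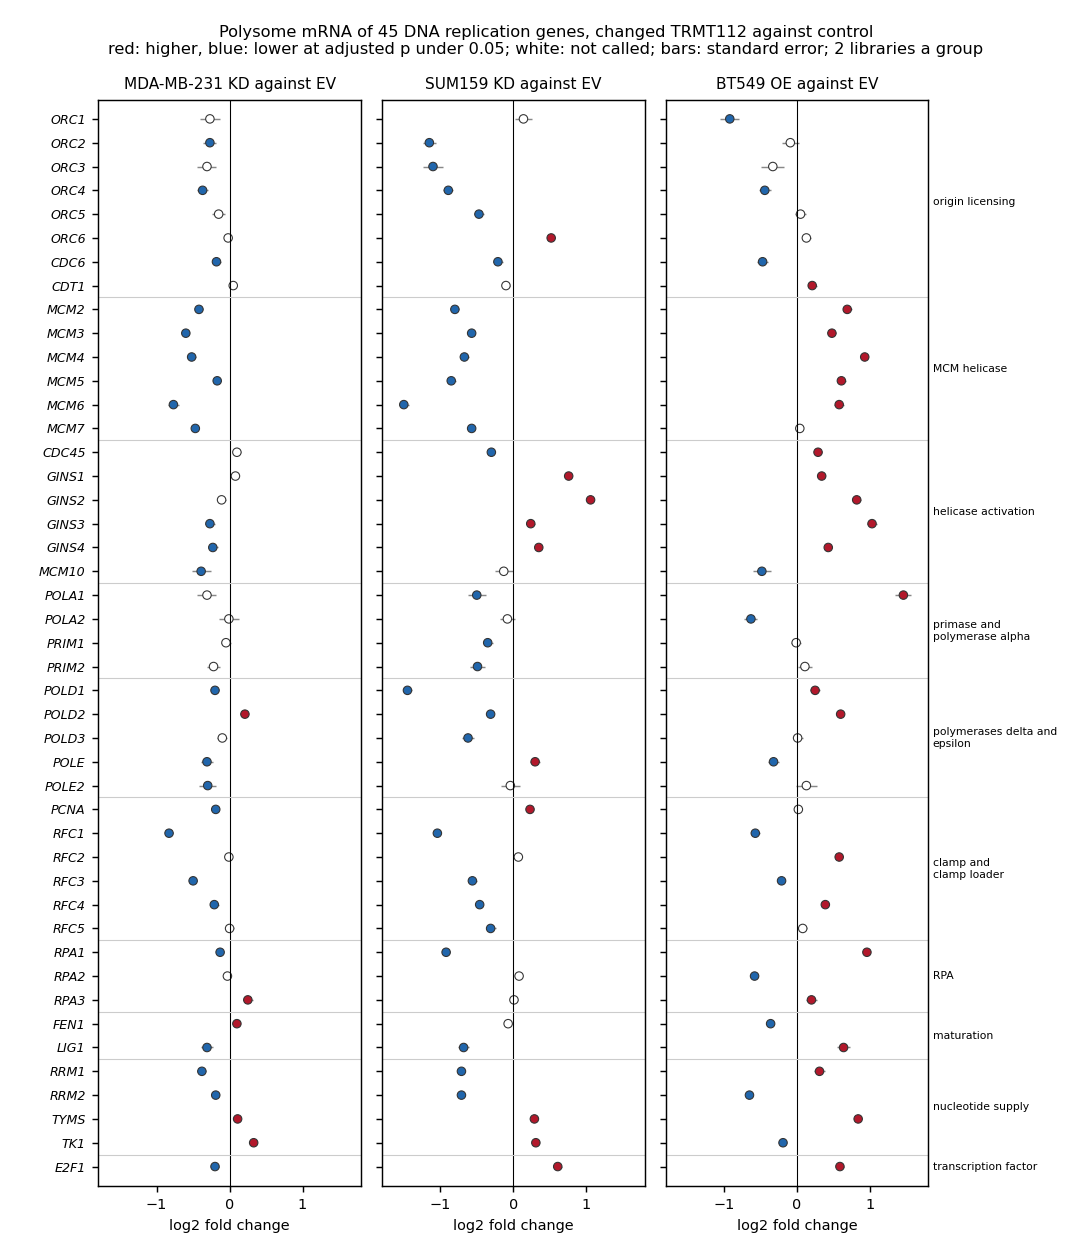
Log2 fold change (x axis, bars are standard errors) of each of the 45 DNA replication genes (y axis, grouped by role) for MDA-MB-231 KD, SUM159 KD and BT549 OE against EV, 2 libraries a group; red and blue points passed an adjusted p under 0.05. The 6 MCM genes lie left of 0 in both KD panels and 5 of them lie right of 0 as called in OE, whereas the 4 GINS genes lie right of 0 in SUM159 KD and in BT549 OE.

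The MCM2-7 helicase genes moved as a block. All 6 were lower in MDA-MB-231 KD, with a median log2 fold change of -0.50 and a range from -0.77 to -0.17, and all 6 were lower in SUM159 KD, with a median of -0.73 and a range from -1.50 to -0.57. In BT549 OE 5 of 6 were higher, with a median of 0.59 and a range up to 0.93, and MCM7 was at 0.04 (adjusted p = 0.362). Of all genes tested, 16.5% were lower in MDA-MB-231 KD, 31.4% were lower in SUM159 KD and 35.6% were higher in BT549 OE. MCM6 (chr2:135839626-135876443), which stood at 957.8 and 992.2 normalized counts in SUM159 EV, was at 334.7 and 352.0 in KD, or -1.50 ± 0.07 on the log2 scale (fitted value ± standard error, adjusted p = 1.49e-14). In MDA-MB-231 it was at 583.3 and 597.2 in EV and at 334.5 and 360.3 in KD (log2 fold change -0.77, standard error 0.08, adjusted p = 3.15e-08). In BT549 it was at 540.9 and 516.0 in EV and at 795.1 and 782.2 in OE (0.58, standard error 0.07, adjusted p = 1.81e-07). The KD libraries of both lines thus lay within 334.5 to 360.3, although their controls differed, and no EV library overlapped a KD library.

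MCM7 (chr7:100092233-100101940), a subunit of the ring whose gene hosts a microRNA cluster, gave the smallest p of the helicase in MDA-MB-231. It stood at 5323 and 5157 normalized counts in EV and at 3725 and 3821 in KD, or -0.47 ± 0.04 on the log2 scale (adjusted p = 4.85e-10). Its libraries did not overlap in either KD line and overlapped in BT549, where EV held 3403 and 3182 and OE 3413 and 3361. MCM4 (chr8:47960185-47978160), a subunit with a regulatory tail that the replication kinases phosphorylate, rose most of the 6 in BT549 OE. It was at 2275 and 2511 in EV and at 4516 and 4610 in OE, or 0.93 ± 0.05 on the log2 scale (adjusted p = 3.20e-14). Both OE libraries lay above both EV libraries, and in the KD lines MCM4 had log2 fold changes of -0.52 and -0.67. The remaining subunits, which complete the ring, had log2 fold changes in MDA-MB-231, SUM159 and BT549 of -0.42, -0.80 and 0.69 (MCM2), -0.60, -0.57 and 0.48 (MCM3) and -0.17, -0.85 and 0.61 (MCM5). The loss in SUM159 exceeded that in MDA-MB-231 for MCM2 (difference of the log2 fold changes, MDA-MB-231 minus SUM159, 0.38, adjusted p = 2.48e-04), MCM5 (0.68, 1.42e-07) and MCM6 (0.74, 3.09e-06). No difference was called for MCM3 (-0.03, standard error 0.07), MCM4 (0.15, 0.08) and MCM7 (0.09, 0.05). MCM2 shares 1113 exon bases with an opposite-strand lncRNA and MCM7 shares 392 with AP4M1, and the strand setting of the counting is not given in the sources used here. From the leading transcript alone, MCM4 was no longer among the genes called lower in both KD lines. Under every scaling, filter, tool and omission tried, all 6 log2 fold changes stayed below 0 in both KD lines, and those of MCM2 to MCM6 stayed above 0 in OE. The smallest of these changes, MCM5 in MDA-MB-231 KD, was not called with DESeq2 (-0.15, adjusted p = 0.0572) or without EV replicate 1 (-0.16, adjusted p = 0.0946), EV replicate 2 (-0.18, adjusted p = 0.0550) or KD replicate 2 (-0.12, adjusted p = 0.219).

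**Figure D2:**
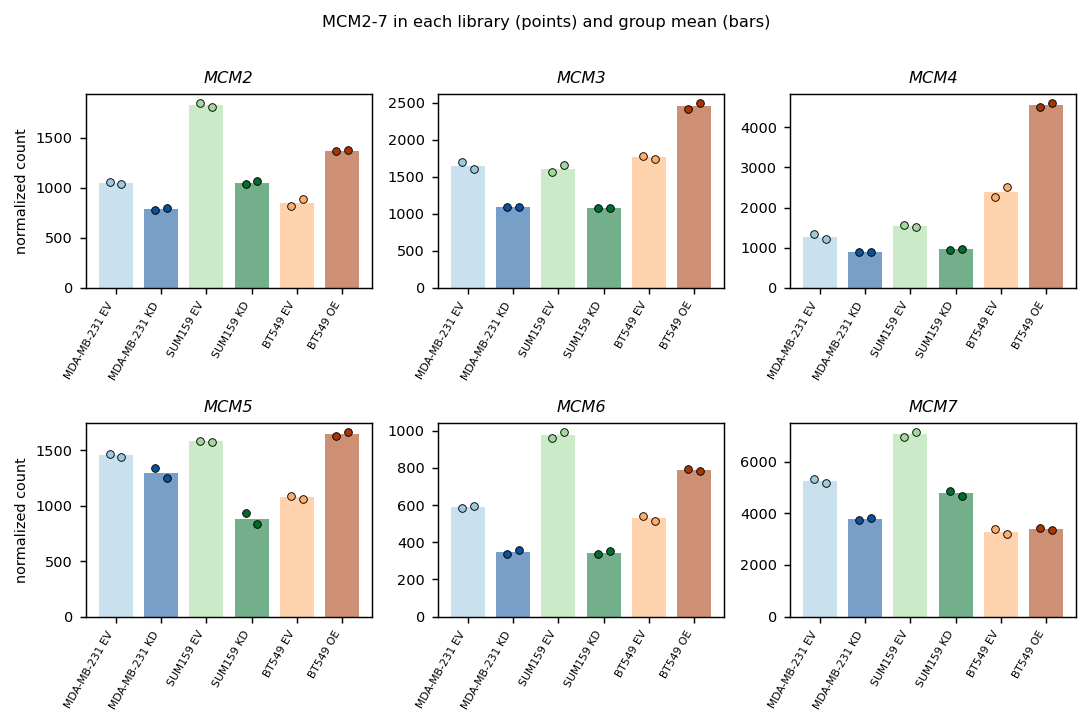
Normalized counts (y axes start at 0) of MCM2 to MCM7 in each of the 12 libraries (points) with the mean of the 2 libraries of each group (bars). In every panel both KD libraries of MDA-MB-231 and of SUM159 sit below their EV libraries, and both OE libraries sit above EV for all but MCM7.

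Among the origin licensing genes, in MDA-MB-231 KD 3 of its 8 genes were lower (ORC2, ORC4 and CDC6) and none was higher. In SUM159 KD 5 were lower (ORC2 to ORC5 and CDC6) and ORC6 was higher. In BT549 OE 3 were lower (ORC1, ORC4 and CDC6) and CDT1 was higher. The 3 of 8 called in MDA-MB-231 KD (37.5%) lay near the 37.7% of all genes, the 6 of 8 in SUM159 KD stood against 60.1%, and the 4 of 8 in BT549 OE lay below 70.6%. ORC2 (chr2:200908977-200963680), a core subunit of the origin recognition complex, stood at 825.6 and 845.5 normalized counts in SUM159 EV and at 354.9 and 396.1 in KD, or -1.15 ± 0.09 on the log2 scale (adjusted p = 6.77e-11). In MDA-MB-231 it was at 641.6 and 609.1 in EV and at 478.7 and 557.8 in KD, a log2 fold change of -0.27, and the difference between the lines was 0.88 (adjusted p = 2.26e-06). The KD libraries lay below the EV libraries in both lines, and the MDA-MB-231 call was lost without EV replicate 1 (-0.24, adjusted p = 0.114) and without KD replicate 1 (-0.16, adjusted p = 0.266).

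ORC4 (chr2:147930396-148021604), an ATPase-fold subunit, was the licensing gene with the smallest p in MDA-MB-231 KD, at 1042.0 and 963.4 normalized counts in EV and 809.4 and 738.0 in KD (log2 fold change -0.37, standard error 0.07, adjusted p = 8.10e-05). It was lower in the other 2 comparisons as well, with log2 fold changes of -0.89 in SUM159 KD and -0.44 in BT549 OE. ORC1 (chr1:52372829-52404423), the largest subunit and an ATPase, stood at 331.8 and 337.7 in BT549 EV and at 179.4 and 173.2 in OE (log2 fold change -0.92, standard error 0.13, adjusted p = 7.19e-07). It was not called in the KD lines (-0.27, adjusted p = 0.161, and 0.14, adjusted p = 0.337). ORC6, the smallest subunit and the only one of the complex that rose anywhere, had a log2 fold change of 0.52 in SUM159 KD, with 1428 and 1347 normalized counts in EV and 1983 and 1989 in KD, beside -0.02 in MDA-MB-231 and 0.13 in BT549. ORC3 and ORC5, also subunits of the complex, had log2 fold changes of -1.10 and -0.47 in SUM159 KD and were not called elsewhere. CDC6, the loading ATPase, was lower in all 3 comparisons (-0.18, -0.21 and -0.47). Its calls in the KD lines were lost with DESeq2 (-0.16, adjusted p = 0.0998 in MDA-MB-231 and -0.16, adjusted p = 0.0797 in SUM159) and without KD replicate 2 in SUM159 (-0.17, adjusted p = 0.0900). In MDA-MB-231 the CDC6 call was also lost without EV replicate 1 (-0.14, adjusted p = 0.213), KD replicate 1 (-0.15, adjusted p = 0.211) or KD replicate 2 (-0.21, adjusted p = 0.0597). CDT1, the partner of CDC6 in loading, was called in BT549 OE alone, at 0.21 (0.05 and -0.10 in the KD lines).

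The GINS genes, whose products activate the helicase, went a different way from the MCM genes in SUM159 KD. All 4 GINS genes were higher in SUM159 KD, with a median log2 fold change of 0.55, and all 4 were higher in BT549 OE, with a median of 0.63. Of all genes tested, 28.6% were higher in SUM159 KD and 35.6% in BT549 OE. In MDA-MB-231 KD 2 of the 4 GINS genes were lower (16.5% of all genes were), the median was -0.17 and none was higher. The KD effects differed between the lines for all 4 (differences from -1.17 to -0.51), where 50.9% of all genes differed. GINS2 (chr16:85676198-85690073) stood at 1205 and 1269 normalized counts in SUM159 EV and at 2589 and 2568 in KD, or 1.06 ± 0.05 on the log2 scale (adjusted p = 1.75e-14). In MDA-MB-231 it was at 788.3 and 860.2 in EV and at 758.8 and 765.9 in KD (-0.11, adjusted p = 0.165). In BT549 it was at 987.6 and 1076 in EV and at 1816 and 1839 in OE (0.82, adjusted p = 4.12e-12). The SUM159 KD libraries held more GINS2 than any other of the 12, while those of MDA-MB-231 KD held the least.

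GINS3 (chr16:58295080-58406147) gave the smallest p of its group in MDA-MB-231 KD and in BT549 OE. In MDA-MB-231 it was at 571.0 and 544.2 in EV and at 449.7 and 475.9 in KD (log2 fold change -0.27, standard error 0.07, adjusted p = 4.68e-03). The call was lost without EV replicate 1 (-0.24, adjusted p = 0.0518) and without KD replicate 1 (-0.23, adjusted p = 0.0663). In BT549 it was at 620.8 and 607.9 in EV and at 1278 and 1229 in OE (1.03, standard error 0.07, adjusted p = 1.21e-12), so the OE libraries lay above every other library. In SUM159 KD its log2 fold change was 0.24. GINS1 and GINS4, the other subunits, had log2 fold changes of 0.08 and -0.23 in MDA-MB-231 KD, 0.76 and 0.35 in SUM159 KD, and 0.34 and 0.43 in BT549 OE. The GINS4 call in MDA-MB-231 was lost without EV replicate 2 (-0.20, adjusted p = 0.0720) and without KD replicate 1 (-0.20, adjusted p = 0.0821). GINS4 shares 1145 exon bases and GINS3 558 with an opposite-strand lncRNA. CDC45, which joins the helicase with GINS, did not rise with it in SUM159 KD: its log2 fold changes were 0.10, -0.30 and 0.29, lower in SUM159 KD and higher in BT549 OE. MCM10, a scaffold needed to start unwinding, was lower in MDA-MB-231 KD (-0.39) and BT549 OE (-0.48) and was at -0.13 in SUM159 KD (adjusted p = 0.368). The MDA-MB-231 call of MCM10 was lost without KD replicate 2 (-0.22, adjusted p = 0.312), EV replicate 1 (-0.35, adjusted p = 0.119) or EV replicate 2 (-0.42, adjusted p = 0.0594).

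E2F1 (chr20:33675477-33686385), a transcription factor that activates genes of this set, moved in opposite directions in the KD lines. It stood at 1311 and 1466 normalized counts in MDA-MB-231 EV and at 1157 and 1255 in KD, or -0.20 ± 0.06 on the log2 scale (adjusted p = 0.0101). In SUM159 it stood at 831.6 and 846.5 in EV and at 1317 and 1250 in KD (0.61, standard error 0.06, adjusted p = 1.77e-08). In BT549 it was at 1244 and 1145 in EV and at 1824 and 1776 in OE (0.59, standard error 0.06, adjusted p = 8.39e-09). No group overlapped its control, and the difference between the KD lines was -0.82 (standard error 0.09, adjusted p = 4.47e-08). The MDA-MB-231 call was lost without EV replicate 2 (-0.12, adjusted p = 0.243) and without KD replicate 1 (-0.14, adjusted p = 0.167). Of the 19 members with E2F letters in the promoter, 7 were higher and 9 lower in SUM159 KD, where of the 20 matched members without them 2 were higher and 14 lower. In MDA-MB-231 KD the counts were 1 higher and 12 lower with the letters and 3 and 9 without, and in BT549 OE 11 and 4 with and 7 and 7 without. These splits are counts of genes that share libraries and were not tested.

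**Figure D3:**
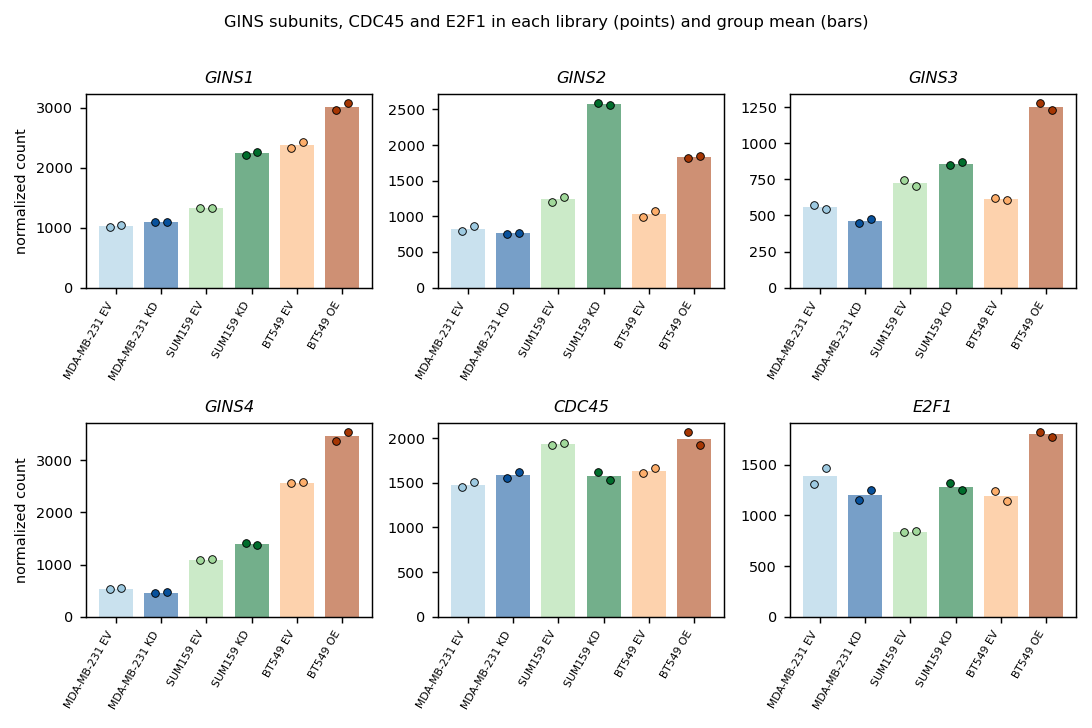
Normalized counts (y axes start at 0) of GINS1 to GINS4, CDC45 and E2F1 in each of the 12 libraries (points) with the group means (bars). The GINS genes and E2F1 stand above EV in SUM159 KD and in BT549 OE, CDC45 stands below EV in SUM159 KD, and MDA-MB-231 KD shows no rise of a GINS gene that passed the test.

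Polymerase alpha and primase, which lay down the RNA-DNA primers, had none of their 4 genes called in MDA-MB-231 KD, with log2 fold changes from -0.31 (POLA1) to -0.01 (POLA2). PRIM2, the large primase subunit, had the smallest p there, at 520.2 and 512.3 normalized counts in EV and 450.6 and 432.6 in KD (log2 fold change -0.22, standard error 0.09, adjusted p = 0.0605). In SUM159 KD 3 of 4 were lower (31.4% of all genes were), with PRIM2 at 436.0 and 412.2 in EV and 287.3 and 314.0 in KD (-0.49, standard error 0.10, adjusted p = 1.79e-04), POLA1 at -0.50 and PRIM1, the catalytic primase subunit, at -0.35. From the leading transcript alone PRIM1 had a log2 fold change of 0.22 there (adjusted p = 0.378), and PRIM1 shares 139 exon bases with NACA on its own strand. POLA1 (chrX:24693873-24996986), the catalytic subunit of polymerase alpha, had the highest log2 fold change of the 45 genes in BT549 OE, from 214.6 and 225.9 normalized counts in EV to 605.8 and 610.1 in OE (1.46, standard error 0.11, adjusted p = 2.09e-11). POLA2, its regulatory subunit, was lower in the same libraries, at 746.7 and 775.1 in EV and 496.1 and 486.7 in OE (-0.63, adjusted p = 1.96e-06), and was not called in either KD line. The subunits of 1 complex thus changed in opposite directions in BT549 OE, and POLA2 shares 2012 exon bases with a same-strand protein-coding gene model (ENSG00000285816), so its counts are uncertain.

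Polymerases delta and epsilon held the widest gap between the KD lines. POLD1 (chr19:50384204-50418018), the catalytic subunit of polymerase delta, stood at 2061 and 1917 normalized counts in SUM159 EV and at 741.0 and 716.1 in KD, or -1.45 ± 0.06 on the log2 scale (adjusted p = 6.39e-16). In MDA-MB-231 it was at 1873 and 1731 in EV and at 1618 and 1517 in KD (-0.20, adjusted p = 4.72e-03), and the difference was 1.25 (standard error 0.08, adjusted p = 6.24e-12), the largest of the 45 in either direction. The MDA-MB-231 call of POLD1 was lost without EV replicate 1 (-0.14, adjusted p = 0.102) and without KD replicate 2 (-0.15, adjusted p = 0.0928), and in BT549 OE its log2 fold change was 0.25. POLD1 shares 426 exon bases with a same-strand protein-coding gene model (ENSG00000142539). Transcripts not annotated as protein coding held 5.37% and 2.67% of its counts in SUM159 EV and 17.5% and 9.69% in KD. Its leading coding transcript fell there as well, from 1641 and 1374 normalized counts to 370.6 and 462.1. POLD2 (chr7:44114631-44124358), the accessory subunit that links the catalytic subunit to the rest, went in opposite directions in the KD lines. It rose in MDA-MB-231 KD from 6329 and 6092 to 7164 and 7162 (0.21, standard error 0.03, adjusted p = 2.33e-05) and fell in SUM159 KD from 11480 and 11202 to 9363 and 8942 (-0.31, standard error 0.03, adjusted p = 9.30e-09), with a difference of 0.52 (adjusted p = 1.43e-09). It rose in BT549 OE as well, from 8095 and 7843 to 12321 and 11843 (0.60, standard error 0.03, adjusted p = 4.73e-14). POLD3, a subunit that binds PCNA, was lower in SUM159 KD alone (-0.62). POLE, the catalytic subunit of polymerase epsilon, had log2 fold changes of -0.31 in MDA-MB-231 KD, 0.30 in SUM159 KD and -0.32 in BT549 OE, all called, and POLE2, its second subunit, was called in MDA-MB-231 KD alone (-0.30, adjusted p = 0.0473). Without EV replicate 1, POLE was not called in MDA-MB-231 KD (-0.21, adjusted p = 0.0677), and POLE2 was not without EV replicate 2 (-0.14, adjusted p = 0.533), KD replicate 1 (-0.25, adjusted p = 0.235) or KD replicate 2 (-0.34, adjusted p = 0.0903).

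The clamp and its loader moved apart in SUM159 KD. PCNA (chr20:5114953-5126626), the sliding clamp, was at 4249 and 4279 normalized counts in SUM159 EV and at 5017 and 4954 in KD (log2 fold change 0.23, standard error 0.03, adjusted p = 1.81e-06). In MDA-MB-231 it was at 4274 and 4378 in EV and at 3746 and 3858 in KD (-0.19, standard error 0.03, adjusted p = 7.43e-05), a difference of -0.41 between the lines (adjusted p = 6.33e-08). The EV libraries of both lines lay within 4249 to 4378, and the KD libraries lay on either side of them; 3 pseudogenes carry its name. In BT549 the PCNA libraries overlapped. RFC1 (chr4:39287456-39366375), the large subunit of the clamp loader, was lower in all 3 comparisons and had the lowest log2 fold change of the 45 in MDA-MB-231 KD. It stood at 1183 and 1194 in MDA-MB-231 EV and at 665.2 and 676.3 in KD (-0.83, standard error 0.05, adjusted p = 3.78e-11). It was at 2339 and 2356 in SUM159 EV and 1154 and 1136 in KD (-1.04, standard error 0.05, adjusted p = 5.89e-15). In BT549 it was at 1181 and 1147 in EV and at 791.8 and 775.4 in OE (-0.57), so neither KD nor OE libraries reached the level of their controls.

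The small RFC subunits form the rest of the loader. RFC3 was lower in all 3 comparisons (-0.50, -0.56 and -0.21), and RFC4 was lower in both KD lines and higher in OE (-0.21, -0.46 and 0.39). The MDA-MB-231 call of RFC4 was lost without EV replicate 2 (-0.16, adjusted p = 0.0913) or KD replicate 2 (-0.17, adjusted p = 0.0696), and RFC5 was called in SUM159 KD alone (-0.31). RFC2 (chr7:74231499-74254458) was not called in the KD lines (-0.01 and 0.07) and rose in BT549 OE from 3169 and 3138 to 4729 and 4673 normalized counts (0.58, standard error 0.04, adjusted p = 5.60e-13). Both OE libraries of RFC2 stood above all 10 other libraries.

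RPA, the trimer that coats single-stranded DNA, did not move as a unit in any comparison. RPA1 (chr17:1829702-1900082), its large DNA-binding subunit, stood at 1713 and 1772 normalized counts in SUM159 EV and at 911.3 and 926.3 in KD (log2 fold change -0.92, standard error 0.05, adjusted p = 6.45e-14). In BT549 it was at 2055 and 2062 in EV and at 4003 and 3996 in OE (0.96, standard error 0.04, adjusted p = 6.72e-16). In MDA-MB-231 KD its log2 fold change was -0.13, which was called, but not without EV replicate 1 (-0.08, adjusted p = 0.182) or KD replicate 1 (-0.12, adjusted p = 0.0672). RPA2, the subunit that is phosphorylated on damage, was not called in the KD lines (-0.03 and 0.08) and was lower in OE (-0.58). RPA3, the small subunit, gave the smallest p of the trimer in MDA-MB-231 KD, at 496.7 and 535.1 in EV and 600.5 and 626.2 in KD (0.25, standard error 0.07, adjusted p = 6.73e-03). That call was lost without EV replicate 1 (0.19, adjusted p = 0.0960), without KD replicate 2 (0.22, adjusted p = 0.0641) and under scaling by library size (0.16, adjusted p = 0.0818). In BT549 OE the log2 fold change of RPA3 was 0.20, a call that was lost without EV replicate 1 (0.16, adjusted p = 0.145) and without OE replicate 1 (0.16, adjusted p = 0.143). Named pseudogenes number 3 for RPA2 and 2 for RPA3, and how shared reads were assigned is not given in the sources used here.

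Of the maturation genes, LIG1 (chr19:48115445-48170603), the ligase that seals Okazaki fragments, was lower in both KD lines and higher in OE. It stood at 766.7 and 701.3 normalized counts in MDA-MB-231 EV and at 570.5 and 613.7 in KD (log2 fold change -0.31, standard error 0.08, adjusted p = 2.26e-03; without EV replicate 1 -0.25, adjusted p = 0.0525). It was at 593.4 and 557.9 in SUM159 EV and 357.9 and 359.8 in KD (-0.68, standard error 0.08, adjusted p = 2.07e-07). In BT549 OE its log2 fold change was 0.64. FEN1 (chr11:61792911-61797238), the flap endonuclease that trims the fragments, went the other way in BT549, from 4742 and 4665 in EV to 3728 and 3609 in OE (-0.36, standard error 0.04, adjusted p = 9.85e-09), beside 0.10 in MDA-MB-231 KD, which was called, and -0.07 in SUM159 KD, which was not. The MDA-MB-231 call of FEN1 was lost when any 1 of the 4 libraries was left out (0.09 to 0.11) and under scaling by library size (0.01, adjusted p = 0.855). The ligase and the nuclease differed in sign in BT549 OE.

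The nucleotide supply genes fell into 2 pairs. The subunits of ribonucleotide reductase, RRM1 and RRM2, were lower in both KD lines (RRM1 -0.38 and -0.71, RRM2 -0.19 and -0.71), and thymidylate synthase (TYMS) and thymidine kinase (TK1), which make thymidine nucleotides, were higher in both (TYMS 0.11 and 0.29, TK1 0.33 and 0.31). TK1 (chr17:78174091-78187233) stood at 7978 and 7714 normalized counts in MDA-MB-231 EV and at 10014 and 9756 in KD (standard error 0.03, adjusted p = 2.57e-08). RRM2 (chr2:10120698-10211725) was at 5143 and 5133 in SUM159 EV and at 3049 and 3223 in KD (standard error 0.04, adjusted p = 7.85e-14). By normalized counts the EV and KD libraries overlapped for none of the 4 genes in either line. Per kilobase of transcript, RRM2 overlapped in MDA-MB-231, with 30.3 and 34.7 in EV and 32.9 and 30.6 in KD. Named pseudogenes number 3 for RRM2 and 2 for TYMS. In BT549 OE the pairs did not hold together: RRM1 and TYMS were higher (0.31 and 0.84), and RRM2 and TK1 lower (-0.65 and -0.19). TYMS (chr18:657653-673578) went from 5919 and 6158 in EV to 10901 and 10782 in OE (standard error 0.03, adjusted p = 8.15e-17); it shares 967 exon bases with ENOSF1 on the opposite strand. RRM1 stood at 552.9 and 470.6 in BT549 EV and at 601.3 and 664.4 in OE, and its call there was lost without EV replicate 2 (0.19, adjusted p = 0.0688). The TYMS call in MDA-MB-231 was lost without EV replicate 1 (0.07, adjusted p = 0.146), without KD replicate 1 (0.10, adjusted p = 0.0587) and under scaling by library size (0.02, adjusted p = 0.678).

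The KD effects on the 45 genes were then compared between the lines with a test of the difference itself. The effects differed for 30 genes, or 66.7%, where 50.9% of all genes tested differed. For 21 the effect was higher in MDA-MB-231 than in SUM159 (27.7% of all genes) and for 9 it was lower (23.2%), with a median difference of 0.17 (0.00 over all genes); scaling by library size gave 16 and 12. The 9 with the higher effect in SUM159 were ORC6, the 4 GINS genes, POLE, PCNA, TYMS and E2F1. Calls ran in opposite directions in the KD lines for 6 genes (13.3%, where 12.2% of all genes did so), namely GINS3 (-0.27 and 0.24), GINS4 (-0.23 and 0.35), POLE (-0.31 and 0.30), PCNA (-0.19 and 0.23), E2F1 (-0.20 and 0.61) and, with the rise in MDA-MB-231, POLD2 (0.21 and -0.31). That share lay near the background. Calls were lower in both lines for 17 genes, or 37.8%, where 7.47% of all genes were lower in both, and higher in both for TYMS and TK1, or 4.44%, where 8.86% of all genes were. The 17 hold all 6 MCM genes together with ORC2, ORC4, CDC6, POLD1, RFC1, RFC3, RFC4, RPA1, LIG1, RRM1 and RRM2. For 7 of the 17 (CDC6, ORC2, MCM5, POLD1, RFC4, RPA1 and LIG1) the MDA-MB-231 call was lost without at least 1 library, with the values given above, and among the 6 with opposite calls PCNA and POLD2 kept both calls under each omission. The 17 became 11 without MDA-MB-231 EV replicate 1 and 11 from the leading transcript. The 6 became 4 without MDA-MB-231 EV replicate 1, 4 without EV replicate 2, 3 without KD replicate 1 and 2 from the leading transcript. Only TK1 was higher in both lines without MDA-MB-231 EV replicate 1, without KD replicate 1 or under scaling by library size.

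**Figure D4:**
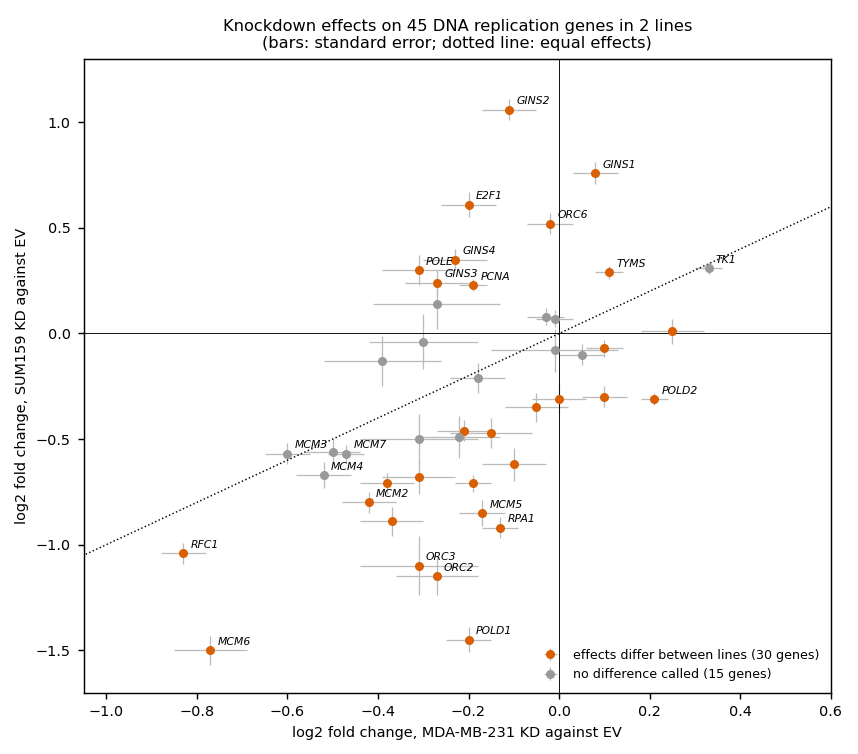
Log2 fold change of each of the 45 genes in MDA-MB-231 KD (x axis) and SUM159 KD (y axis), with standard errors as bars and a dotted line of equal effects; orange points are the 30 genes whose KD effects differed between the lines. Most points lie in the lower left, with MCM6, POLD1 and RFC1 at its far edge. GINS2, GINS1, E2F1 and ORC6 stand at the top, with a rise that was called in SUM159. In MDA-MB-231 E2F1 was called lower, and GINS2, GINS1 and ORC6 were not called.

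Set beside overexpression, 10 of the 17 genes that were lower in both KD lines were higher in BT549 OE (MCM2, MCM3, MCM4, MCM5, MCM6, POLD1, RFC4, RPA1, LIG1 and RRM1). That is 22.2% of the 45, where 2.99% of all genes had this pattern. The 10 became 6 without MDA-MB-231 EV replicate 1 (MCM2, MCM3, MCM4, MCM6, RFC4 and RRM1) and 6 from the leading transcript, and 8 to 10 without any 1 of the other libraries. Another 5 of the 17 were lower in BT549 OE too (ORC4, CDC6, RFC1, RFC3 and RRM2), or 11.1%, where 2.94% of all genes were (2 from the leading transcript). None of the 45 escaped a call in all 3 comparisons, where 14.3% of all genes did, and 4 did from the leading transcript. That 14.3% includes genes with low counts, which are called less often than genes counted as well as the members. With DESeq2, with RLE size factors or with a replicate block, 1 gene did, POLE2. Without MDA-MB-231 EV replicate 2, KD replicate 1 or KD replicate 2 it was 1 gene, POLE2. The KD and OE constructs were tested in different lines, so the direction of TRMT112 and the cell line cannot be told apart in this comparison.

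Levels were compared between genes on a per-length scale, with each transcript's expected counts divided by its length in kilobases, summed per gene and given per 1000000 counts of the scaled library. Summed over the 45 genes, this level was 1796 ± 3.8 (SD, n = 2) in MDA-MB-231 EV and 1794 ± 14 in KD, 1932 ± 3.5 in SUM159 EV and 1825 ± 20 in KD, and 1933 ± 0.39 in BT549 EV and 2257 ± 29 in OE. In MDA-MB-231 the sums of EV and KD differed by less than the spread between libraries, although most of the members were lower in KD. The 3 members with the highest level there, TYMS (258.0 in EV and 279.0 in KD), TK1 (229.0 and 290.0) and POLD2 (161.0 and 185.0), rose, while PCNA, the next (141.0 and 124.0), fell. Within MCM2-7, which works as a ring with 1 copy of each subunit, MCM6 was lowest and MCM7 highest in all 6 groups. MCM6 lay at 10.9 and MCM7 at 120.0 in SUM159 EV, and at 3.83 and 80.5 in KD, so the ratio of the highest to the lowest subunit went from 11.0 to 21.0. It went from 13.5 to 16.5 in MDA-MB-231 KD and from 9.46 to 6.50 in BT549 OE. The sum over the ring was 167.0 ± 3.8 in MDA-MB-231 EV and 121.0 ± 0.33 in KD, 218.0 ± 2.6 and 137.0 ± 1.4 in SUM159, and 140.0 ± 1.7 in BT549 EV and 197.0 ± 2.2 in OE.

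In the origin recognition complex ORC6 was the highest subunit in every group, between 30.7 and 51.8 per kilobase, and ORC1 the lowest in every group but BT549 EV, where ORC2 stood at 2.58 below ORC1 at 4.50. In SUM159 the sum over ORC1 to ORC6 was 92.9 ± 0.70 in EV and 87.6 ± 0.58 in KD, since ORC6 rose while ORC2 to ORC5 fell. For the GINS subunits the ratio of highest to lowest was 1.39 to 3.71. Their sum went from 71.6 ± 0.15 to 115.0 ± 1.7 in SUM159 KD and from 112.0 ± 4.4 to 160.0 ± 1.6 in BT549 OE, beside 47.5 ± 2.2 and 46.6 ± 1.2 in MDA-MB-231. In SUM159 KD the sum over GINS therefore rose as that over MCM2-7 fell. For RFC, RFC1 was the lowest subunit in all groups but SUM159 EV. The ratio of highest to lowest went from 8.24 to 15.7 in MDA-MB-231, from 4.58 to 8.22 in SUM159 and from 9.50 to 20.2 in BT549 OE. RPA1 changed its place in the trimer between lines, from 47.5 in MDA-MB-231 EV, close to RPA2 at 48.0, to the lowest of the 3 in SUM159 EV at 16.3. With the longest transcript of each gene as the length, the ratio for MCM2-7 was 8.79 and 16.9 in SUM159 EV and KD.

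**Figure D5:**
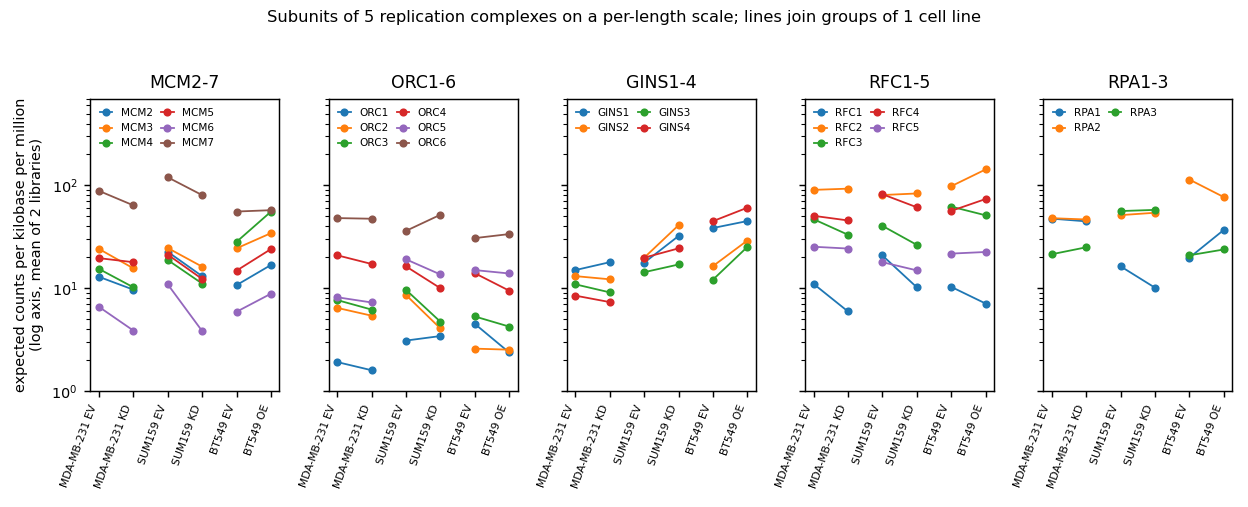
Expected counts per kilobase (log y axis, mean of 2 libraries) for the subunits of MCM2-7, ORC1-6, GINS1-4, RFC1-5 and RPA1-3 in the 6 groups, with lines joining the groups of 1 cell line. MCM7 and ORC6 lie above their partners, MCM6 and RFC1 lie at or near the bottom of theirs, and the MCM lines slope down in both KD lines while the GINS lines slope up in SUM159 KD and BT549 OE.

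The control libraries showed how far the lines differed before the target was changed. Between SUM159 EV and MDA-MB-231 EV 24 of the 45 genes were higher and 15 lower in SUM159 (75.7% of all genes were called, 39.2% higher and 36.4% lower), with a median of 0.14. All 6 genes of helicase activation were higher in SUM159, from 0.36 (GINS1) to 1.03 (GINS4), and FEN1 (-1.12) and RPA1 (-1.49) were lower. Between BT549 EV and MDA-MB-231 EV 18 were higher and 18 lower (79.5% of all genes were called, 39.1% higher and 40.4% lower), and scaling by library size gave 10 and 30. GINS4 (2.26) and POLA2 (2.48) stood highest in BT549 and RRM1 (-1.92) lowest. Between BT549 EV and SUM159 EV 17 were higher and 23 lower (78.4% of all genes were called, 37.7% higher and 40.7% lower), with 11 and 26 under scaling by library size, and the values ran from -2.29 for RRM1 to 1.23 for GINS4. The libraries did not overlap for 42, 42 and 43 of the 45 genes in these contrasts, in that order, where 86.4%, 88.2% and 87.7% of all genes did not. RRM1 was thus low in BT549 against both other lines, and each of these contrasts shares its EV libraries with the KD and OE contrasts above.

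The table lists 504 transcripts for the 45 genes, from 1 to 68 a gene. For 44 of them the transcript with the most counts is annotated as protein coding, and for 34 it held more than 50% of the gene's counts in every library. The exception is RRM2, whose leading transcript ENST00000652660.1 is annotated as a retained intron. It held 37.4% and 39.5% of RRM2 counts in MDA-MB-231 EV, 31.0% and 33.0% in KD, 45.2% and 43.0% in SUM159 EV and 41.4% and 42.6% in KD. The main coding transcript ENST00000304567.10 fell in SUM159 KD with it, from 1902 and 2080 normalized counts to 1035 and 1100, whereas the longer coding transcript ENST00000360566.6 was at 593.3 and 485.5 in EV and 586.7 and 474.0 in KD, so those libraries overlapped. For POLA1 the share of transcripts not annotated as protein coding was 23.6% and 11.1% in BT549 EV and 35.0% and 36.6% in OE. Its leading coding transcript rose there as well, from 132.3 and 155.9 to 367.8 and 287.2. How the counting split reads between overlapping transcripts is not given in the sources used here, so these shares are less certain than the sums per gene.

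Another 75 genes of the replication pathway, listed by role from general knowledge, were called lower in 32 and higher in 12 cases in MDA-MB-231 KD (median -0.15; 16.5% and 21.2% of all genes), in 39 and 18 in SUM159 KD (median -0.17; 31.4% and 28.6% of all genes), and in 29 and 33 in BT549 OE (median 0.04; 35.0% and 35.6% of all genes). The lower calls were 42.7%, 52.0% and 38.7% of the 75, so in BT549 OE their share lay near the background. Their medians lay nearer 0 than those of the 45 members in all 3 comparisons. Among the 13 other initiation genes 5 were lower and 3 higher in each KD line. The 61.5% called stood against 37.7% of all genes in MDA-MB-231 KD and lay near the 60.1% in SUM159 KD. CDC7, the kinase that phosphorylates MCM2-7, had log2 fold changes of -0.49, -0.63 and -0.64 in MDA-MB-231 KD, SUM159 KD and BT549 OE, all called. Its activator DBF4 had -0.06, -0.01 and -0.35. Among the 11 genes that rebuild chromatin behind the fork, 7 were lower in MDA-MB-231 KD and 8 in SUM159 KD, with medians of -0.35 and -0.60, among them CHAF1A (-0.58 and -0.41) and the maintenance methyltransferase DNMT1 (-0.51 and -0.60). Of the 15 further nucleotide supply genes, 8 and 9 were lower, and 9 were higher in BT549 OE. The purine synthesis genes GART and ATIC had -0.36 and -0.68 in MDA-MB-231 KD, -1.66 and -1.46 in SUM159 KD and 0.57 and 0.50 in OE, all called. The small subunits POLE3 and POLE4 of polymerase epsilon were lower in MDA-MB-231 KD (-0.24 and -0.38) and higher in SUM159 KD (0.50 and 0.36), the same signs as POLE itself. These genes were named for their role next to the members and do not stand for all genes of those roles. CDC7, CHAF1A, ATIC and POLE4 were at the lowest log2 fold change of their roles in MDA-MB-231 KD, and GART was in SUM159 KD. Other genes went the other way. Among the chromatin genes 1 was higher in MDA-MB-231 KD and 2 in SUM159 KD (up to 0.93). Of the 15 nucleotide supply genes 4 and 3 were higher, and 3 were lower in BT549 OE, where the lowest value was -4.10.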

How the data were processed

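Per the labels and the study's methods, polysome fractions of cycloheximide-treated cells were pooled and sequenced. The authors used Trimmomatic for trimming, HISAT2 for alignment (GRCh38) and SAMtools to drop PCR duplicates. The counting tool, its annotation and its strand setting are not given in the sources used here. The labels and the methods name different library kits, 1 with poly(A) selection and 1 with rRNA depletion. The deposited values are expected counts (estimated counts that need not be whole) per Ensembl transcript, not normalized, for 201932 transcripts. In the 8 MDA-MB-231 and SUM159 columns 10254 rows (5.08%) had a question mark instead of a number, taken as 0; these rows held 0.121% of the BT549 counts. Transcripts were matched to GENCODE 44 (79.6% of transcripts, 99.25% to 99.41% of counts), summed per symbol and rounded; 111 symbols join more than 1 gene ID.

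All 12 libraries entered 1 model of 6 group means in edgeR 4.0.16 (R 4.3.3), with TMM scaling, its filter on low counts and the quasi-likelihood test; adjusted p-values are Benjamini-Hochberg over 16538 genes, with a threshold of 0.05. Scaling makes all values relative to the library, so a change in the total amount of polysomal RNA is not measured. Each library held 22954226 to 27434677 counts. The procedure was tested on simulated data. Alternatives were RLE and library-size scaling, DESeq2 1.42.0, other filters, a replicate block, each line alone, the leading transcript, marked transcripts left out, a fold threshold and each library left out in turn. The members, the lists and the rule for named genes were chosen with earlier results of these data known. By that rule, the gene with the smallest p in each role and each of the 3 main comparisons is described in full, as are the 3 genes with opposite calls in the KD lines and the smallest p for the difference; all other members are named with their fold change or counted. Promoter sequences are from RefSeq (GRCh38.p14), and gene coordinates from GENCODE 44.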

Additional observations from a re-analysis of the deposited data

Results flagged for a closer look

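The KD effect differed between MDA-MB-231 and SUM159 for 30 of the 45 DNA replication genes, by the test of the difference itself in edgeR at an adjusted p under 0.05. Of all genes tested 50.9% differed, and of the 12590 with a mean of at least 50 counts 8000 did, so the members' share lay near that of the latter. Values are the log2 fold change in MDA-MB-231 minus that in SUM159. The effect was higher in MDA-MB-231 for POLD1 (1.25), ORC2 (0.88), ORC3 (0.79), RPA1 (0.79), MCM6 (0.74), MCM5 (0.68), POLD3 (0.52), RRM2 (0.52), POLD2 (0.52), ORC4 (0.51) and CDC45 (0.40). It was also higher, by smaller amounts, for MCM2 (0.38), LIG1 (0.37), ORC5 (0.32), RRM1 (0.32), RFC5 (0.31), PRIM1 (0.30), RFC4 (0.25), RPA3 (0.24), RFC1 (0.21) and FEN1 (0.17). The effect was higher in SUM159 for GINS2 (-1.17), E2F1 (-0.82), GINS1 (-0.67), POLE (-0.62), GINS4 (-0.58), ORC6 (-0.54), GINS3 (-0.51), PCNA (-0.41) and TYMS (-0.18). Positive differences stand mostly for genes that fell further in SUM159, such as POLD1 and MCM6; exceptions are RPA3 and FEN1, which rose in MDA-MB-231 and were not called in SUM159, and POLD2, which rose in MDA-MB-231 and fell in SUM159. Negative differences stand for genes that rose in SUM159 KD. TRMT112 itself fell further in MDA-MB-231 (log2 fold change -1.23) than in SUM159 (-0.76; difference -0.47, adjusted p = 1.83e-07). Of the 30 differences, those of RPA3 (adjusted p = 0.114), ORC5 (0.0728), PRIM1 (0.0574) and RFC1 (0.0924) were not called with DESeq2. Leaving out 1 library ended the call of the difference for ORC5 (0.25 to 0.31 over 4 libraries, adjusted p up to 0.103), PRIM1 (0.22 to 0.29 over 4 libraries, up to 0.124), RFC1 (0.19 and 0.21 without SUM159 and MDA-MB-231 KD replicate 2, up to 0.0579), FEN1 (0.11 without SUM159 KD replicate 2, 0.113) and RPA3 (0.19 to 0.22 over 4 libraries, up to 0.149).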

How the results depend on the processing

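With 2 libraries a group the replicate check rests on 1 difference per group, and depth limits low genes such as ORC1 and POLA1 in MDA-MB-231, at under 170 normalized counts. Directions of the medians held under every setting except for BT549 EV against MDA-MB-231 EV. The cause of the changes below was not tested, beyond fewer libraries or fewer counts where a setting removes them. In MDA-MB-231 KD the members' median was -0.18 with RLE factors and with DESeq2. Library-size scaling gave 2 higher and -0.29, and the leading transcript gave 3 higher, 14 lower and -0.26. In SUM159 KD the median was -0.26 with RLE factors and DESeq2, -0.35 with library size and -0.29 at a mean of at least 50 counts. For the difference of the KD effects it was 0.14 with RLE factors and DESeq2, 0.12 with library size and 0.13 at a mean of at least 50 counts. For SUM159 EV against MDA-MB-231 EV it was 0.08 with RLE factors and DESeq2 and 0.04 with library size. For BT549 EV against MDA-MB-231 EV library size gave 10 higher, 30 lower and a median of -0.34, where the median of all genes moved from -0.03 to -0.34, and the filter at a mean of 50 counts gave -0.07. For BT549 EV against SUM159 EV it was -0.15 with RLE factors and DESeq2 and -0.19 from the leading transcript; library size gave 11 higher and -0.44, where the median of all genes moved from -0.06 to -0.27. A minimum absolute change of 0.5 (log2) left 0 higher and 4 lower in MDA-MB-231 KD, 4 higher in SUM159 KD, 13 higher and 5 lower in BT549 OE, 10 higher for the difference of the KD effects, and 14 and 4, 10 and 11, and 11 and 14 in the 3 contrasts of EV libraries.

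Leaving out 1 library at a time gave 2 to 4 higher and 15 to 20 lower with a median of -0.21 to -0.16 in MDA-MB-231 KD, the lowest counts coming without EV replicate 1. It gave 10 to 10 higher, 25 to 28 lower and -0.35 to -0.33 in SUM159 KD, and 21 to 23 higher, 12 to 13 lower and 0.16 to 0.19 in BT549 OE. For the difference of the KD effects it gave 18 to 21, 9 to 10 and 0.17 to 0.21. For SUM159 EV against MDA-MB-231 EV it gave 22 to 22, 13 to 15 and 0.12 to 0.20, for BT549 EV against SUM159 EV 16 to 17, 22 to 23 and -0.23 to -0.19, and for BT549 EV against MDA-MB-231 EV 16 to 18, 16 to 18 and -0.02 to 0.02, with the sign turning without MDA-MB-231 EV replicate 2 (0.02). Where an arm keeps 1 library, it is assumed to vary like the other groups. The replicate numbers are shared by the labels alone. Libraries with the same number did not deviate together, with correlations of 0.014 in MDA-MB-231, -0.025 in SUM159 and -0.005 in BT549, and a replicate block gave 5 higher and 25 lower in MDA-MB-231 KD, 10 and 26 in SUM159 KD and 22 and 13 in BT549 OE.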
